A study of Mus musculus with 6 samples.

Results

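The SR proteins and the hnRNPs are the largest groups of RNA-binding proteins that steer the choice of splice sites, and their transcripts were followed here in mRNA-seq of splenic NK cells with and without Mettl3. Genes were taken by symbol: Srsf followed by a number, Srrm1, Srrm2, Tra2a and Tra2b for the SR group, and every symbol beginning with Hnrnp for the hnRNP group. This gave 35 of the 14490 genes listed in the deposited table. The SR group held 15 genes (11 Srsf, 2 Srrm and 2 Tra2) and the hnRNP group 20. Each sample was polyA RNA from splenic NK cells of C57BL/6 mice, isolated by flow cytometric sorting. WT samples carried the floxed Mettl3fl/fl alleles without Cre, and cKO samples carried the same floxed alleles together with Cre at the Ncr1 locus, which encodes the receptor NKp46 and drives deletion in NKp46+ cells. Each genotype had 3 samples, WT-1 to WT-3 and cKO-1 to cKO-3, without treatment. The labels give no age, and the age range in the study's methods is that of young adult mice. The labels do not say whether a sample came from 1 animal or several, so the p-values below measure the spread between these samples, which may be partly technical.

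METTL3 is the catalytic subunit of the complex that writes m6A on nascent mRNA. SR proteins have RNA recognition motifs and tails rich in arginine and serine, bind enhancer sequences in exons and recruit U1 and U2 snRNPs to nearby splice sites. The hnRNPs coat pre-mRNA as it is made, and many of them bind silencer sequences and oppose SR proteins at the same exon. Several members of both families have been linked to m6A in other cells. YTHDC1, which binds m6A in the nucleus, has been tied to SRSF3 and SRSF10. HNRNPC binds uridine tracts that open when a neighbouring adenosine is methylated, and HNRNPA2B1 has been described as a nuclear reader. Many SR genes also carry "poison" exons whose inclusion sends their own mRNA to nonsense-mediated decay.

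All values below are normalized read counts per gene, in which the authors divided each count by the size factor of its sample. Reads on listed genes ranged from 55965515 to 67732352 in WT and from 62995813 to 71464042 in cKO. The genotypes were compared by limma on log2(value + 1), two-sided, and a gene was called at a p under 0.05 after Benjamini-Hochberg adjustment across the 14490 listed genes. Mettl3 itself read 1303, 1258 and 1192 in WT and 297, 299 and 405 in cKO, with every cKO sample far below WT. Its mean fell from 1251 ± 56.0 (SD, n = 3) to 334 ± 61.9, a log2 fold change of -1.92 (SE 0.099, limma adjusted p = 2.32e-14), so the libraries followed their labels. Of 12 NK markers, all were listed and none stood at 0 in any sample, with summed values from 985089 to 1019560 in WT and from 939940 to 983715 in cKO. Among them 2 were higher (Tbx21, log2 fold change 0.23, and Il2rb, 0.14) and 6 lower in cKO (Ncr1, -0.40, and Nkg7, -0.34, among them), and Ncr1 is also the gene that carries Cre. Summed B cell markers ranged from 1365 to 1395 in WT and from 1833 to 1909 in cKO. Of these 8 genes 6 were called higher and none stood at 0. Of 9 listed T cell markers 2 were lower, and of 5 listed myeloid markers 3 were higher and 1 lower. None of 5 listed erythroid markers was called. Of all listed genes 17.8% were called higher and 18.8% lower. With samples scaled to equal totals, NK markers were 4 higher and 5 lower, T cell markers 2 and 2, and myeloid markers 4 and 1. The B cell and erythroid counts stayed the same. In these bulk samples fewer cells of a type and less RNA per cell cannot be told apart, and the part of other cells in the values below was not tested.

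At the level of single genes the picture was mixed and small in size. In the SR group 4 genes were called higher in cKO (Srsf1, Srsf2, Srsf6 and Srsf7) and 1 lower (Srrm1), whereas in the hnRNP group 1 was higher (Hnrnpm) and 7 were lower (Hnrnpc, Hnrnph2, Hnrnpk, Hnrnpu, Hnrnph3, Hnrnpa1 and Hnrnpdl). Together 13 of 35, or 37.1%, were called. Of all listed genes 36.6% were called, 17.8% higher and 18.8% lower, so the number of calls in these families was near the background. Without WT-1 or without cKO-2 the SR calls fell from 5 to 3. Among the 6945 genes with a mean of at least 1000 normalized counts, a group that holds every member but Srsf12, 52.6% were called. All 35 members passed the filter on low values, which removed no gene of the table.

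**Figure D1:**
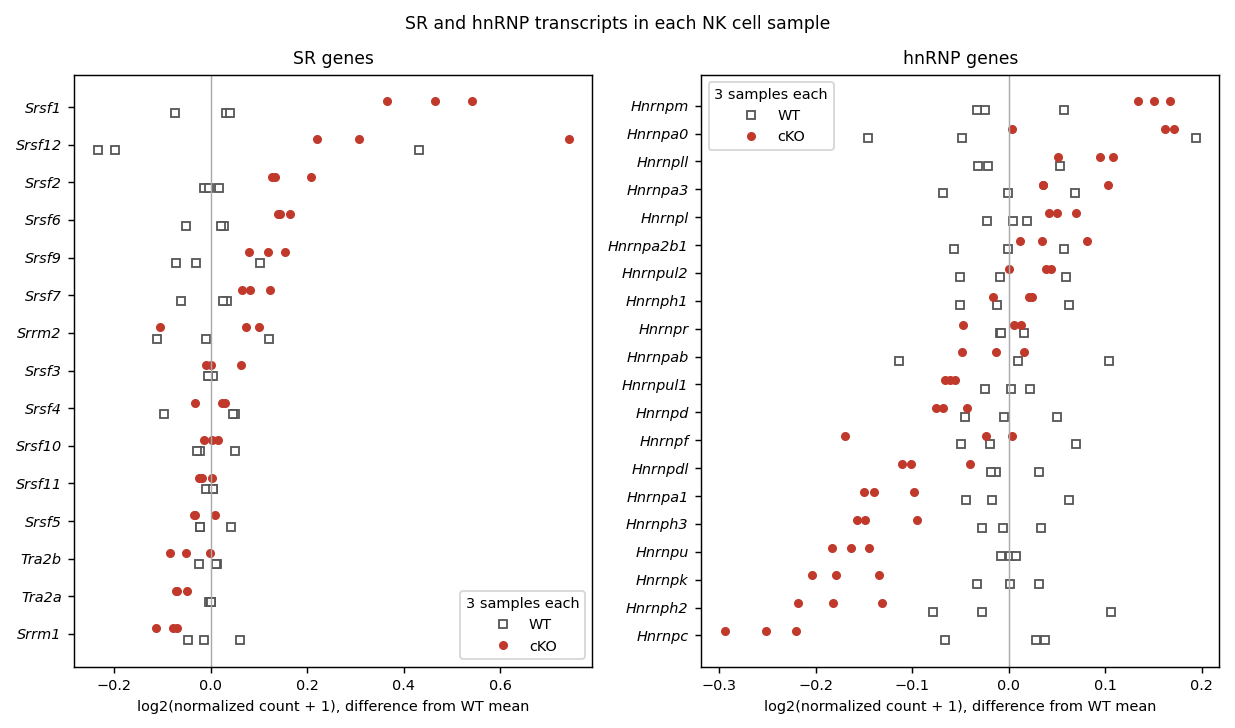
Each point is 1 sample, plotted as log2(normalized count + 1) minus the mean of the 3 WT samples of that gene, with SR genes on the left and hnRNP genes on the right (open squares WT, filled circles cKO). The 3 cKO points of Srsf1 lie far to the right of its WT points, those of Hnrnpc far to the left, and most other genes stay within 0.2 of their WT mean.

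Srsf1 showed the largest difference of any member. It encodes the founding SR protein, formerly ASF/SF2, which activates exonic enhancers and also acts on mRNA export and translation, and it lies at chr11:88047373-88053755 on the plus strand (GRCm38, GENCODE vM21). Its normalized counts were 1757, 1892 and 1902 in WT-1 to WT-3 and 2381, 2693 and 2551 in cKO-1 to cKO-3. All cKO samples stood well above all WT samples. The mean rose by 37.3% on the fitted scale, with a log2 fold change of 0.46 (SE 0.053, limma adjusted p = 1.26e-07). Per length only Srsf12 was a scarcer SR transcript. At 324 normalized counts per kilobase of exon in WT it lay far below Srsf5, the most abundant member per length with 29264.

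Srsf2, known as SC35, is a speckle protein that binds exonic enhancers and also helps to release paused RNA polymerase. It read 18135, 18525 and 18264 in WT and 20002, 21162 and 20074 in cKO. No cKO sample reached down to the WT range, and the log2 fold change was 0.16 (SE 0.031, limma adjusted p = 0.000254). Its exons share 460 bases with Mettl23 and 288 bases with Mfsd11 on the other strand, and both genes are listed. The library kit named in the labels does not mark strand, so reads from such shared stretches cannot be assigned to one gene.

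Srsf6, formerly SRp55, another enhancer-binding SR protein, had 22392, 23661 and 23559 normalized counts in WT and 26005, 25624 and 25572 in cKO. The cKO samples were close to each other and all higher than WT, with a log2 fold change of 0.15 (SE 0.031, limma adjusted p = 0.000327). Srsf7, or 9G8, has a zinc knuckle besides its RNA recognition motif and takes part in mRNA export. It read 26795, 28629 and 28448 in WT and 29215, 30451 and 29585 in cKO, a rise of 0.090 on the log2 scale (SE 0.032, limma adjusted p = 0.0269). The lowest cKO sample of Srsf7 stood just above the highest WT sample. Its call was lost when WT-1 was left out (limma adjusted p = 0.176) or when cKO-2 was left out (limma adjusted p = 0.107).

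Srrm1 (SRm160) has no RNA recognition motif of the SR type and serves as a coactivator that bridges SR proteins and snRNPs. It read 18229, 16925 and 17304 in WT and 16563, 16171 and 16666 in cKO. The cKO samples lay below WT by a narrow margin, and the log2 fold change was -0.086 (SE 0.033, limma adjusted p = 0.0404). That call was lost without any 1 of WT-1, WT-3, cKO-1, cKO-2 or cKO-3, with adjusted p from 0.0509 to 0.229, and after scaling the samples to equal totals (-0.036, limma adjusted p = 0.404).

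The remaining 10 SR genes were not called. Srsf3, a small SR protein that also serves as an export adaptor, read 48379, 48572 and 48235 in WT and 48046, 50526 and 48415 in cKO. Its groups overlapped around a log2 fold change of 0.017 (95% confidence interval -0.043 to 0.078, limma adjusted p = 0.688). Srsf10, which turns into a general splicing repressor when dephosphorylated, read 11639, 12238 and 11580.0 in WT and 11710, 11839 and 11949 in cKO, a log2 fold change of 0.0020 (interval -0.066 to 0.070, limma adjusted p = 0.970). The genotypes overlapped for both of these genes tied to YTHDC1. With equal totals, which moved the median of all genes to 0.051, Srsf3 was called higher at 0.067 (limma adjusted p = 0.0455) and Srsf10 was not called.

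Srsf9, a small relative of Srsf1, stood close to the threshold, with 2624 ± 167 in WT and 2844 ± 74.3 in cKO, a log2 fold change of 0.12 (SE 0.049, limma adjusted p = 0.0601). It passed the threshold in 7 of 14 alternative settings. Tra2a, which binds GAA-rich enhancers, did not overlap between genotypes, with 19456 to 19529 in WT and 18555 to 18844 in cKO, but its log2 fold change of -0.064 did not pass the test (limma adjusted p = 0.0951). Its paralogue Tra2b stood at -0.046 (limma adjusted p = 0.258). The speckle scaffold Srrm2 varied most between samples of 1 genotype among the abundant SR genes, from 59103 to 69465 in WT and from 59338 to 68478 in cKO, with a log2 fold change of 0.023. Srsf4 (0.0070), Srsf5 (-0.019) and Srsf11 (-0.013) differed by less than 0.02 on the log2 scale. For Srsf4, 43.0% of the exon bases are shared with the listed transcript Gm12992 on the other strand.

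Srsf12, a close relative of Srsf10, was barely present, with values of 30.8, 19.0 and 19.5 in WT and 26.4, 28.2 and 38.4 in cKO. The samples overlapped, and its log2 fold change of 0.42 had an interval from -0.36 to 1.21, so no difference of that size could be detected at this depth. For 8 of the 10 uncalled SR genes the 95% confidence interval stayed within 0.2 of 0 on the log2 scale.

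**Figure D2:**
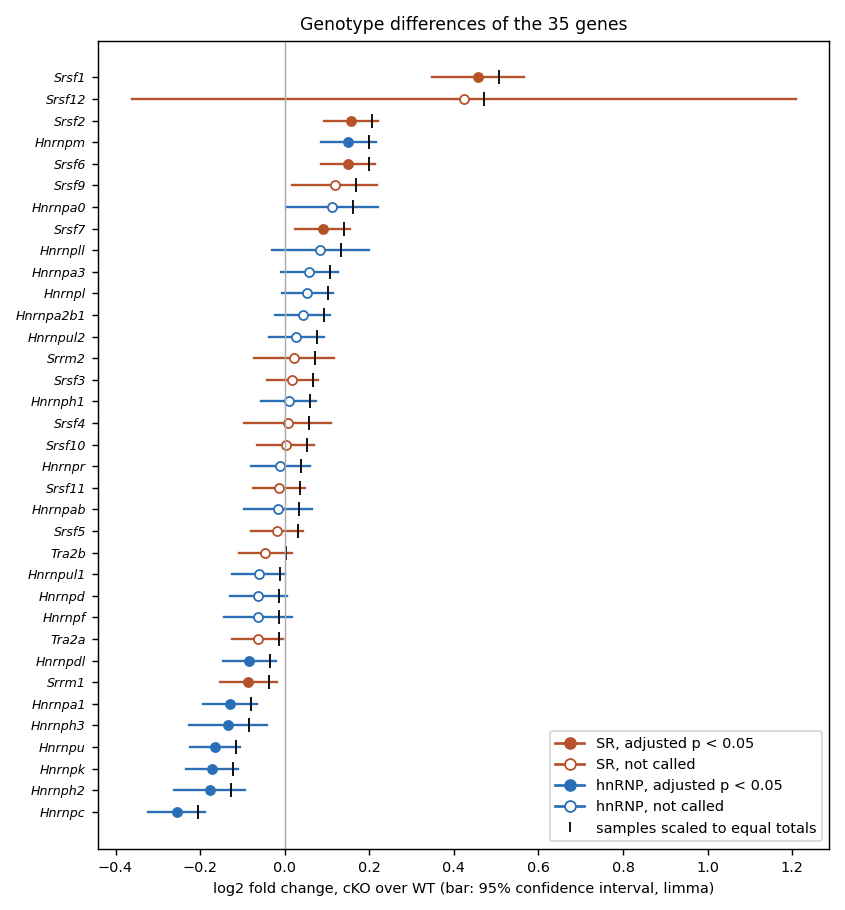
Log2 fold change of each of the 35 genes (x axis, cKO over WT) with its 95% confidence interval from limma, filled where the adjusted p was under 0.05, and a tick for the value after scaling to equal totals. SR genes fill most of the top of the order and hnRNP genes the bottom, from Srsf1 at 0.46 to Hnrnpc at -0.26, and every tick lies about 0.05 to the right of its point.

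Hnrnpc showed the largest fall of any member. Its protein forms the core particle of the hnRNP complex as a tetramer, binds uridine tracts, competes with U2AF at splice sites and keeps cryptic exons out. Its normalized counts were 31186, 31394 and 29224 in WT and 25695, 26243 and 24941 in cKO. The highest cKO sample lay below the lowest WT sample by a wide gap. Means went from 30601 ± 1197 to 25626 ± 654, a log2 fold change of -0.26 (SE 0.032, limma adjusted p = 5.46e-07), and the call was kept in all 14 alternative settings, between -0.29 and -0.21.

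Hnrnph2 and Hnrnph3 belong to the hnRNP F/H family, which binds runs of guanines. Hnrnph2 read 7893, 8967 and 8174 in WT and 7159.8, 7609 and 7343 in cKO, with a log2 fold change of -0.18 (SE 0.041, limma adjusted p = 0.00111). Hnrnph3 read 2690.2, 2806 and 2732 in WT and 2568, 2459 and 2473 in cKO, with a log2 fold change of -0.13 (SE 0.045, limma adjusted p = 0.0213). Neither gene overlapped between genotypes. The other 2 members of this family were not called: Hnrnph1, by far the more abundant at 95291 ± 3825 in WT, had a log2 fold change of 0.0093 (interval -0.055 to 0.074), and Hnrnpf one of -0.063 (interval -0.14 to 0.017). The call of Hnrnph3 was lost without WT-2, cKO-2 or cKO-3 (adjusted p from 0.0665 to 0.0767), with equal totals (limma adjusted p = 0.144) and with upper-quartile scaling (limma adjusted p = 0.0586).

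Hnrnpk, which binds poly(C) tracts through KH domains and acts in transcription as well as splicing, read 47382, 48351 and 46257 in WT and 41789, 43111 and 41085 in cKO. Its log2 fold change was -0.17 (SE 0.030, limma adjusted p = 4.75e-05). Hnrnpu, also called scaffold attachment factor A, binds chromatin-associated RNA and regulates U2 snRNP maturation. It read 32150, 32355 and 32501 in WT and 28476, 29237 and 28870 in cKO, a log2 fold change of -0.16 (SE 0.029, limma adjusted p = 5.40e-05). For both genes the samples of 1 genotype lay close together and the genotypes were clearly apart. On the other strand, Hnrnpk shares 330 exon bases (5.10%) with the listed Rmi1 and Hnrnpu 804 (6.93%) with the listed Cox20.

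Hnrnpa1, the classical splicing silencer of the A/B family, went from 51051 ± 1983 to 46652 ± 881, with a log2 fold change of -0.13 (SE 0.031, limma adjusted p = 0.00173) and no overlap. HNRNPA1 has many processed pseudogenes, and how the authors counted reads that fit several places was not given in the sources used here, so its level is uncertain. None of its relatives was called. Hnrnpa2b1 read 57544, 62251 and 59789 in WT and 60307, 63315 and 61284 in cKO, overlapping, with a log2 fold change of 0.043 (interval -0.023 to 0.11, limma adjusted p = 0.321). Hnrnpa3 stood at 0.058 (limma adjusted p = 0.180), Hnrnpab at -0.015 and Hnrnpa0 at 0.11 (limma adjusted p = 0.102), the last with the widest spread of the abundant hnRNPs, from 37698 to 47725 in WT alone. For Hnrnpab, 29.1% of the exon bases are shared with the listed gene Phykpl on the other strand. With equal totals Hnrnpa0, Hnrnpa2b1 and Hnrnpa3 were called higher, at 0.16, 0.092 and 0.11, and Hnrnpa1 stayed lower at -0.080.

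Hnrnpdl, a paralogue of the AU-rich element binding protein Hnrnpd, fell by 0.084 on the log2 scale (SE 0.030, limma adjusted p = 0.0309), from 37186 ± 708 to 35096 ± 940. This call was lost without WT-2, cKO-1 or cKO-3 (adjusted p from 0.120 to 0.138), with equal totals and with upper-quartile scaling. Hnrnpd itself was not called, at -0.062 (limma adjusted p = 0.142).

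The 1 hnRNP gene that rose was Hnrnpm, which binds GU-rich sites and promotes exon skipping. It read 19366, 20502 and 19251 in WT and 22114, 21873 and 21613 in cKO. Every cKO sample exceeded every WT sample, with a log2 fold change of 0.15 (SE 0.032, limma adjusted p = 0.000421). Its exons share 1169 bases (14.7%) with March2 on the same strand, whose symbol a spreadsheet can turn into a date, so its row could not be told apart in the table. Among the uncalled hnRNP genes, the CA-repeat binding Hnrnpl also had all cKO samples above WT (27151 to 27937 against 28383 to 28938) by 0.053 on the log2 scale (limma adjusted p = 0.160), and Hnrnpul1 had all cKO samples below WT at -0.061 (limma adjusted p = 0.122). Hnrnpll, the paralogue of Hnrnpl that is known for excluding exons of Cd45 in lymphocytes, was the scarcest hnRNP transcript, with 1406 ± 45.8 in WT and 1490.5 ± 30.8 in cKO (log2 fold change 0.084, limma adjusted p = 0.258). Hnrnpr (-0.010) and Hnrnpul2 (0.028) were not called either. For 11 of the 12 uncalled hnRNP genes the 95% confidence interval stayed within 0.2 of 0.

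Set side by side, the family medians differed by a small amount, and their signs were opposite with the authors' size factors and all samples. The median log2 fold change was 0.017 over the 15 SR genes and -0.038 over the 20 hnRNP genes, beside 0.0014 over all listed genes, and the hnRNP median became 0.011 with equal totals and -0.014 with upper-quartile scaling. Without cKO-3 the SR median was -0.0040 and without cKO-1 0.0095, while it was 0.015 to 0.027 without any other library. The hnRNP median was -0.057 without WT-1, -0.020 to -0.024 without WT-2, WT-3 or cKO-1, and about the same as with all samples without cKO-2 or cKO-3. Of the SR genes 10 had a positive and 5 a negative log2 fold change, and of the hnRNP genes 8 and 12. With the 11 Srsf genes alone the median was 0.090, with 9 positive and 4 called, all of them higher. In the SR group 4 genes had all cKO samples above all WT samples and 2 below, and in the hnRNP group 2 above and 8 below, where 45.7% of all listed genes did not overlap, 22.7% above and 23.0% below. The median size of the difference regardless of sign was 0.064 for SR genes and 0.073 for hnRNP genes, against 0.17 for all listed genes, which are on the whole less abundant (median level 880 normalized counts, against 19303 and 27053).

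The count of calls in each direction moved with the scaling. After equal totals 6 SR genes were higher and 0 lower, and 6 hnRNP genes were higher and 5 lower, while all genes went from 2576 higher and 2731 lower to 3487 and 2016. With upper-quartile scaling SR genes were 5 higher and 0 lower and hnRNP genes 3 higher and 5 lower. By contrast, the distance between the family medians does not depend on how samples are scaled. It was 0.056 with the authors' size factors, and without 1 library in turn it ranged from 0.030 to 0.075, with 0.030 without cKO-1 and 0.035 without cKO-3. Within single samples, the median SR deviation from the WT mean minus the median hnRNP deviation was 0.014, -0.035 and 0.0069 in WT and 0.079, 0.015 and 0.065 in cKO. The lowest cKO sample, cKO-2, was nearly level with the highest WT sample, WT-1.

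**Figure D3:**
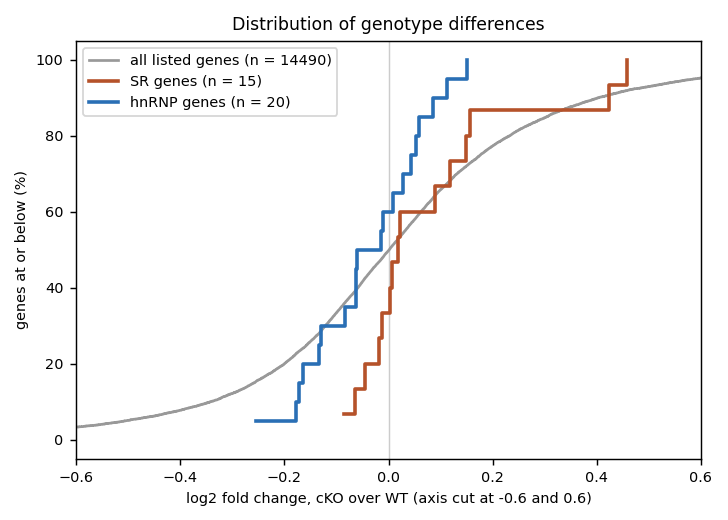
Cumulative share of genes (y axis, percent) at or below a given log2 fold change (x axis, cKO over WT) for SR genes, hnRNP genes and all listed genes. Both families rise more steeply than the curve of all genes, and the SR curve lies to the right of the hnRNP curve, with medians of 0.017 and -0.038.

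The summed levels of both families overlapped between genotypes. SR transcripts summed to 403410 ± 3742 normalized counts in WT and 407892 ± 1686 in cKO, and hnRNP transcripts to 608436 ± 17162 and 595735 ± 9831. The ratio of the SR sum to the hnRNP sum was 0.676, 0.645 and 0.668 in WT and 0.687, 0.672 and 0.695 in cKO. These ranges overlapped, since cKO-2 lay below WT-1. As a share of all listed counts, SR transcripts made up 0.599% to 0.616% in WT and 0.628% to 0.644% in cKO, without overlap, and hnRNP transcripts 0.887% to 0.939% and 0.923% to 0.935%, with overlap. Such a share divides by the total of each sample, as equal totals do, and that scaling moved the median of all genes to 0.051. Before this division the SR sums ranged from 399584 to 407063 in WT and from 406097 to 409442 in cKO, with overlap. A few genes dominate these sums, as Srsf5 alone had 116705 ± 3050 normalized counts in WT and Hnrnph1 95291.

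Ratios between related genes were formed within each sample for 15 pairs, which removes the scaling of the samples. In 9 pairs the genotypes did not overlap, 3 with the ratio above and 6 with it below WT in cKO. Taken singly, 16 of the 35 members already had cKO samples clear of the WT range, as did 45.7% of the 14490 genes. The share among other pairs of genes was not tested. Hnrnpa1, Hnrnpu, Hnrnph1, Srsf5 and Srsf6 each enter more than a single pair, so the pairs are not separate observations. The log2 ratio of Srsf1 to Srsf9 went from -0.50 ± 0.063 to -0.16 ± 0.074 (SD, n = 3), a difference of 0.34. Relative to the very abundant Srsf5, Srsf2 gained 0.18 and Srsf6 gained 0.17, while Srsf3 lost against Srsf7 by a difference of -0.073. Hnrnpa1 lost against both relatives, with differences of -0.17 to Hnrnpa2b1 and -0.19 to Hnrnpa3. The latter log2 ratio went from 0.12 ± 0.021 to -0.066 ± 0.013. Its sign does not rank the 2 genes, since the counts are not corrected for length. Per kilobase of exon Hnrnpa1 stayed above Hnrnpa3, at 16191 against 8694 in WT and 14796 against 9049 in cKO. Hnrnph2 lost against Hnrnph1 by -0.19, and Hnrnpu against Hnrnpul1 by -0.10 and against Hnrnpul2 by -0.19. Each of these 9 pairs had a two-sided exact permutation p of 0.1, the smallest that 20 arrangements of 6 samples allow, and 0.167 after Benjamini-Hochberg adjustment over 15 pairs, so this permutation test cannot reach the 0.05 threshold, and no other test of the ratios was run. The genotypes overlapped for the ratio of Tra2a to Tra2b (difference -0.018, exact permutation p = 0.4) and for that of Hnrnpd to Hnrnpdl (0.021, exact permutation p = 0.8).

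**Figure D4:**
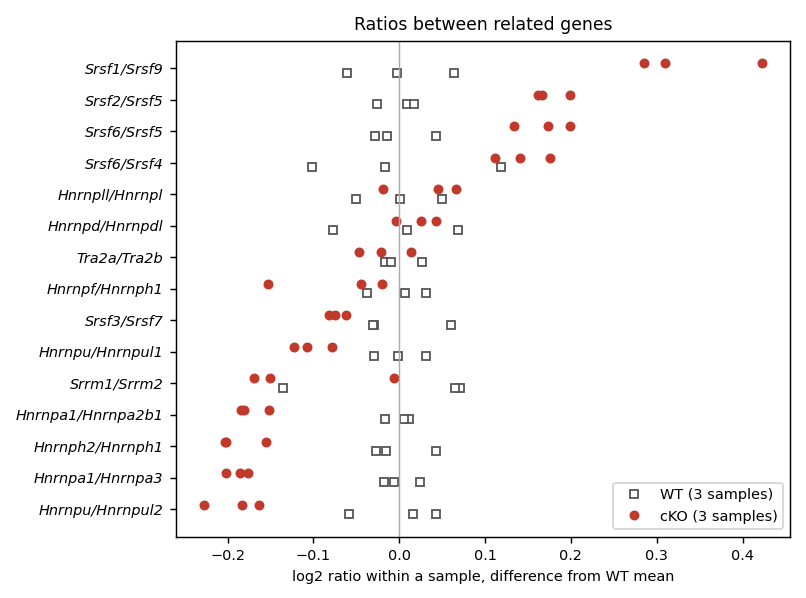
Log2 ratio of the normalized counts of 2 related genes within a sample, minus the WT mean of that ratio (x axis), for 15 pairs (open squares WT, filled circles cKO). Srsf1/Srsf9 stands apart at the top, from 0.29 to 0.42 above the WT mean, and the 3 cKO points of the ratios involving Hnrnpa1, Hnrnph2 and Hnrnpu lie left of all WT points.

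The families also differ in gene structure, which the choice by symbol did not use. In GENCODE vM21, 13 of 15 SR genes (86.7%) have an annotated nonsense-mediated decay transcript, against 10 of 20 hnRNP genes (50%) and 29.2% of the 11813 listed protein-coding genes. A retained-intron transcript is annotated for 12 SR genes (80%), 14 hnRNP genes (70%) and 59.5% of protein-coding genes. The median number of annotated transcripts was 8 in each family and 5 in listed protein-coding genes. Its part in these shares was not tested. The files hold 1 value per gene, so the use of poison exons was not measured. The m6A consensus letters GGACT were sparse in the longest coding transcript of these genes. The median was 0.443 per kilobase for SR and 0.718 for hnRNP genes, against 1.05 for listed protein-coding genes. Median GC content of these transcripts was also lower, at 44.6% and 45.3% against 50.2%. The part of base composition in the GGACT counts was not tested. Srsf1 held 5 matches (0.932 per kilobase), Hnrnpc 2, and Srsf5, Hnrnpab and Hnrnpa2b1 none. A match is a run of letters, not a measured m6A site.

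Promoter sequences from RefSeq (GRCm38.p6) were compared over the 250 bases before the annotated start. All 15 SR genes and 18 of 20 hnRNP genes had an entry, while Hnrnpll and Hnrnpul2 had none. The letters CCAAT, the core of the CCAAT box, on either strand (CCAAT or ATTGG, which may overlap each other by 2 letters) were found for 13 of 18 hnRNP genes (72.2%) and 5 of 15 SR genes (33.3%), beside 40.4% of the 9908 listed genes with an entry. Counted by window, 63.0% of hnRNP, 26.3% of SR and 33.8% of all 32851 windows of the table held it. The letters GGGCGG, on either strand, were found for 77.8% of hnRNP, 86.7% of SR and 62.3% of listed genes, and TATAAA for 1 hnRNP and 2 SR genes. These letters were chosen after the values were seen. The windows of the 2 largest called hnRNP falls and of the 2 largest called SR rises are shown to compare the families, 5′ to 3′, with CCAAT and ATTGG in capitals.
Hnrnpc (chr14:52104022-52104271, minus strand): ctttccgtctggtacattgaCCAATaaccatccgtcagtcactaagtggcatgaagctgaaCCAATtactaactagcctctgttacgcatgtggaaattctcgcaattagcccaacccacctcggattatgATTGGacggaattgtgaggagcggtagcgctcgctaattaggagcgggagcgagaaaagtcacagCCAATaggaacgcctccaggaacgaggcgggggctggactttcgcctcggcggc
Hnrnph2 (chrX:134600929-134601178, plus strand): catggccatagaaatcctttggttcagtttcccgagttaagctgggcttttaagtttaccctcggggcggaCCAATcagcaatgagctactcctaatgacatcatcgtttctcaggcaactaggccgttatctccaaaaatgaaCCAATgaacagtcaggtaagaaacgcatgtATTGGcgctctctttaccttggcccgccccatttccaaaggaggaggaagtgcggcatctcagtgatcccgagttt
Srsf1 (chr11:88047123-88047372, plus strand): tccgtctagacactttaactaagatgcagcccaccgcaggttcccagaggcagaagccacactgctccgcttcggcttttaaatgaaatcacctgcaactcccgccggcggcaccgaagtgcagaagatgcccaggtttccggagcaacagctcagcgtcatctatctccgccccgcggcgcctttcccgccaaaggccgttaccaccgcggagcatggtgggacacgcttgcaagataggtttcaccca
Srsf2 (chr11:116853095-116853344, minus strand): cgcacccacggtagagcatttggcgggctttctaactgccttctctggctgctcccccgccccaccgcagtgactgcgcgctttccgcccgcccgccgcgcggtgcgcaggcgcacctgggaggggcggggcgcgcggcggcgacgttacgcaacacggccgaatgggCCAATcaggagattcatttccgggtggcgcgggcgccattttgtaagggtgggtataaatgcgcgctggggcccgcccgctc
The window of Hnrnpc holds 4 matches, that of Hnrnph2 3, that of Srsf2 1 and that of Srsf1 none. By call, matches were present for 4 of 7 hnRNP genes called lower and for 9 of 10 uncalled hnRNP genes with an entry, and the windows of Hnrnpu, Hnrnph3 and Hnrnpdl, all lower in cKO, held none. Among SR genes, 1 of 4 called higher, 1 of 1 called lower and 3 of 10 uncalled held a match.

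Hnrnpc lies on the same chromosome as the targeted gene. It spans chr14:52073377-52104028 on the minus strand, and 190812 bases separate it from Mettl3. Of the 12 other listed genes within 500 kb of Mettl3, 6 were called higher, 1 lower and 5 not called, and Hnrnpc was the one that was lower, where 17.8% of all listed genes were higher and 18.8% lower. Its neighbour Rpgrip1 rose from 610 ± 27.7 to 839 ± 29.6 (log2 fold change 0.46, limma adjusted p = 2.81e-05), and Supt16, a subunit of the histone chaperone FACT, rose by 0.24 (limma adjusted p = 8.65e-05). Sall2, next to Mettl3 on the far side, rose from 40.5 ± 1.53 to 96.7 ± 27.3, a rise of 1.20 on the log2 scale (limma adjusted p = 0.000652). Both genotypes carry the floxed allele, and whether the deletion itself acts on neighbouring genes was not tested. No other member lies on this chromosome. Ncr1, where cKO alone carries Cre, lies on chromosome 7 with Hnrnpul1 (21.4 Mb away) and Hnrnpl (24.5 Mb away), both uncalled. Whether that locus has a part in their values was not tested.

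**Figure D5:**
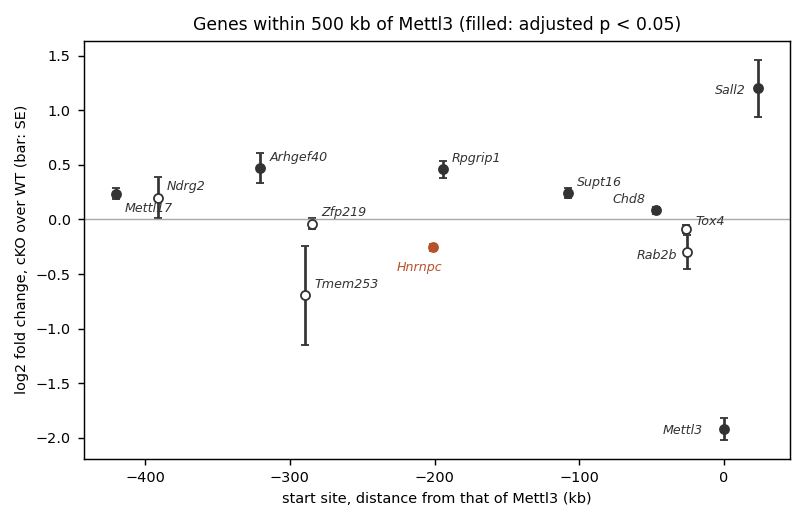
Log2 fold change with its SE (y axis, cKO over WT) of the listed genes within 500 kb of Mettl3, by the distance of their start from that of Mettl3 in kb (x axis), filled where the adjusted p was under 0.05. Hnrnpc is the filled point below 0 beside Mettl3 at -1.92, while 6 other filled points lie above 0.

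Factors that work with the SR and hnRNP proteins were looked at as lists, without a test of any list. Their counts stand beside the 36.6% of all listed genes that were called (17.8% higher, 18.8% lower) and the 52.6% among genes with a mean of at least 1000. Of 10 kinases and import factors of SR proteins, 3 were higher and 3 lower. Prpf4b, a kinase of the tri-snRNP, rose by 0.31 on the log2 scale (limma adjusted p = 1.40e-08) and the cytoplasmic SR kinase Srpk1 by 0.19 (limma adjusted p = 0.000351), while its relative Srpk2 fell by 0.23 (limma adjusted p = 2.36e-05) and the nuclear kinase Clk1 fell by 0.16 (limma adjusted p = 9.91e-05). Srpk1 and Srpk2, which phosphorylate the same tails, thus moved in opposite directions. Of 24 other SR-rich proteins 9 were higher and 5 lower, among them Pnn (0.34) and Scaf1 (0.32) higher and the U2AF-related Rbm39 (-0.20) lower. Of 12 nuclear m6A factors 6 were higher and 2 lower, with the writer subunit Rbm15b at 0.46 and the U6 methyltransferase Mettl16 at 0.42 at one end, and Rbmx, which was formerly called hnRNP G, at -0.31 and the reader Ythdc1 at -0.098 at the other. Ythdc1 was no longer called with equal totals (-0.048, limma adjusted p = 0.201).

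Of 32 other listed regulators that bind RNA, 4 were higher and 12 lower, with a median log2 fold change of -0.049. Rbmx (-0.31) is on this list as well as on that of nuclear m6A factors and counts as lower in each. Ptbp1, the pyrimidine tract protein also known as hnRNP I, went from 53248 ± 1150 to 43107 ± 408 (log2 fold change -0.30, limma adjusted p = 4.14e-09), more than any gene named Hnrnp, while Celf1 (0.26) and Tia1 (0.24) rose. Of 51 core snRNP and splice site recognition genes 7 were higher and 16 lower, with Prpf3 (0.28) and the helicase Dhx8 (0.25) up and Sf3b6 (-0.25) and Prpf38a (-0.21) down. Of 16 genes of nonsense-mediated decay and the exon junction complex 4 were higher and 3 lower, led by Smg8, which restrains the kinase SMG1, at 0.55 (limma adjusted p = 4.26e-08), and by Magohb at -0.22, whose call was lost with equal totals (limma adjusted p = 0.0935). These splits shifted with equal totals to 5 higher and 3 lower for kinases and import, 12 and 2 for SR-rich proteins, 7 and 1 for m6A factors, 10 and 9 for other regulators, 11 and 7 for core factors and 4 and 1 for decay factors. Without 1 library the core count fell from 23 called to as few as 15 (without cKO-1) and the decay count from 7 to 3 (without WT-1 or cKO-3).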

How the data were processed

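PolyA RNA of sorted splenic NK cells was sequenced in 3 samples per genotype, grouped by their labels. Alignment by the authors used Hisat2 and the GRCm38 genome, followed by featureCounts for gene counts and DESeq2 for normalization. The submitters' processing notes give HISAT2 2.0.5 and 2.0, featureCounts 1.5.0-p3 and DESeq2 1.16.1. The study's methods name other versions of Hisat2 and DESeq2, so the versions behind the deposited values are uncertain. The deposited sample columns hold a signal, the read count of a gene divided by the size factor of the sample. The table the authors deposited also holds their mean, log2 fold change with its standard error, Wald statistic (a score), p-value and adjusted p-value, which were not used. In each sample all values (100%, within 0.01 of a read) were whole multiples of one step, which gave the reads on listed genes, and no count test was run. Normalized counts were log2-transformed after adding 1. A filter of at least 1 in at least 3 samples passed all 14490 genes, and limma 3.58.1 in R 4.3.3 fitted genotype with a variance trend, two-sided, with confidence intervals at 95%. Exact permutation tests over 20 arrangements were made in Python 3.11.15. The limma step was tried on simulated data with an assumed spread and with changes larger than those of most called members. That trial does not check calls of differences as small as most of those above.

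The members, the gene lists and the tests were chosen with earlier results of these data known. All members are named. Values per sample are given for the called SR genes, the 6 called hnRNP genes with the largest change, Srsf3, Srsf10, Hnrnpa2b1, Hnrnpc and Mettl3. From each list up to 2 called rises and 2 called falls are named, by their log2 fold change or mean. Srsf12 and the promoters shown were added after their values were seen. Positions and transcripts come from GENCODE vM21 (GRCm38), matched by symbol for 97.3% of names, and promoters from RefSeq. Of all names 19 were spreadsheet dates and 1 occurred a second time. These were kept and not named. Exon bases are shared with another gene listed under its own symbol for 10 members, genes written as dates not included, and how such reads and reads of pseudogenes were counted was not given in the sources used here.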

Additional observations from a re-analysis of the deposited data

How the results depend on the processing

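Results were recomputed with a pseudocount of 0.1, without the filter, with genes kept at 1 CPM or more in 3 samples or more, with equal totals, with the replicate number as a block, with each library left out and, for the SR group, the Srsf genes alone. Upper-quartile scaling and a correction for GC content and length (splines with 5 degrees of freedom, alone or with the block) were added after the data were seen. A further scaling by trimmed means and the count tests in the plan were not run. Srsf1, Srsf2, Srsf6, Hnrnpm, Hnrnpc, Hnrnph2, Hnrnpk, Hnrnpu and Hnrnpa1 kept their direction and their call in all 14 settings, Srsf7 in 12, Hnrnpdl in 9, Hnrnph3 in 8 and Srrm1 in 7. All genes called numbered 5256 to 5543 across settings with all libraries, and 4417 to 4922 without a library. Mettl3 stayed between -2.07 and -1.84 without a library. The SR median, 0.017 as reported, was 0.067 with equal totals, 0.042 with upper-quartile scaling, 0.029 after the GC and length correction (0.029 also with the replicate block) and 0.090 for Srsf genes alone, and without a library it ranged from -0.0040 to 0.027, with 3 to 5 SR genes called. The hnRNP median was 0.011 with equal totals and -0.014 with upper-quartile scaling. The cause of these shifts was not tested, beyond the scaling itself, which moved the median of all genes to 0.051 with equal totals and 0.026 with upper-quartile scaling.

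Directions turned only for genes that were not called. With equal totals these were Hnrnpr (0.040), Srsf11 (0.037), Hnrnpab (0.034), Srsf5 (0.031) and Tra2b (0.0039), and with upper-quartile scaling Hnrnpr (0.014), Srsf11 (0.012), Hnrnpab (0.0093) and Srsf5 (0.0058). After the GC and length correction, with or without the block, they were Srrm2 (-0.012), Srsf4 (-0.0054) and Srsf5 (0.016). Without a library, ranges spanned 0 for Srrm2 (-0.033 to 0.087), Hnrnpab (-0.072 to 0.037), Srsf4 (-0.041 to 0.033), Hnrnph1 (-0.016 to 0.041), Srsf10 (-0.012 to 0.027), Srsf5 (-0.033 to 0.0028), Hnrnpr (-0.021 to 0.0087) and Srsf3 (-0.0049 to 0.031). Srsf12 was not kept by the CPM filter and has no value there.

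The labels give both genotypes the same replicate numbers and do not say whether same-numbered samples share more than that. Deviations from the genotype means of same-numbered samples correlated at -0.024, 0.12 and 0.065 over 11055 genes. Between samples of different number the correlations ran from -0.11 to 0.048. With 3 samples per genotype these values cannot decide whether the samples were paired. With the replicate block 6 SR genes (5 higher, 1 lower) and 8 hnRNP genes (1 higher, 7 lower) were called, with 5543 genes in all, and Srsf9 was the one member whose call changed (limma adjusted p = 0.0387). With the block and the GC and length correction together, 11 hnRNP genes were called, 3 higher and 8 lower. With 3 samples per genotype the spread of single genes is itself poorly known, and for Srsf12 counting error is a large part of it.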
